A study of Mus musculus with 14 samples.

Results

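H3K9 butyrylation (H3K9Bu) in the heart was compared between transverse aortic constriction (TAC) and sham surgery in mice on the 10% fat control diet. The TAC side was heart tissue of male C57/Bl/6J mice, 12 weeks old, that ate this diet for 4 days before and 1 week after TAC, and the sham side came from mice on the same diet that had a sham operation. Each side is 1 chromatin immunoprecipitation sequencing (ChIP-seq) library made from a pool of 3, so the comparison uses 2 of the 12 ChIP libraries of the series and has no replicate check. It was made over all 58137 regions of the authors' merged H3K9Bu table for the 10% and 60% fat diets, of which 23521 lie in the promoter of at least 1 gene and 34616 elsewhere. The regions were taken by library and table and not by their values. The TAC and sham libraries at 60% fat, 1 pool of 3 each from mice of the same strain, sex and age, stand in the same table and are given beside the results. Pairs of TAC and sham libraries for H3K9Bu on a fat-free (0% fat) diet and for H3K9ac at 10% fat, also 1 pool of 3 each, are used for comparison of genes near the end, and the merged H3K9ac table of the 10% and 60% fat diets for overlap. No genetic change is stated for any group.

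Transverse aortic constriction narrows the aorta and loads the left ventricle with pressure, which leads to growth of the heart muscle and to a change in fuel use away from fatty acids. Butyrylation of lysine 9 of histone H3 is an acylation with a longer chain than acetylation. It is drawn from butyryl-CoA, an intermediate of fatty acid oxidation, and is found with acetylation (H3K9ac) at active promoters, many of which contain a CpG island. CpG islands are stretches rich in the dinucleotide CG that cover the starts of most broadly used genes.

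The signal of a region is its average tag density, and all levels below are on that scale. Ratios are log2 values of the signal plus a pseudocount of 1, TAC over sham, and "as deposited" means with no further scaling. "Centred" ratios are given relative to the median of all 58137 regions, which was -0.71 as deposited. A region or gene is counted as lower or higher from 1.5-fold onward. An interval in parentheses is a 95% exact binomial counting interval for the tags of that region. It covers counting error only and says nothing of differences between mice. Whether a difference comes from the surgery, the pool or the library cannot be told apart with 1 library per side. In whole heart tissue, fewer cells of a type and less of the mark per cell cannot be told apart either.

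The promoters of the RNA-binding protein gene Tial1, the pyruvate dehydrogenase kinase gene Pdk4 and the slow myosin gene Myh7 are shown because they were among the promoters with less signal in the TAC library and because their regions cover part or all of the sequence. They were read from the RefSeq promoter table of GRCm38.p6, as the 250 bases before the gene start, 5′ to 3′ on the strand of the gene. Capitals mark the dinucleotide CG, which reads the same on both strands and does not overlap itself. Tial1 is on the minus strand at chr7:128461514-128461763 with 240 bases in the measured region, Pdk4 on the minus strand at chr6:5496279-5496528 with 250, and Myh7 on the minus strand at chr14:54994627-54994876 with 115.
Tial1: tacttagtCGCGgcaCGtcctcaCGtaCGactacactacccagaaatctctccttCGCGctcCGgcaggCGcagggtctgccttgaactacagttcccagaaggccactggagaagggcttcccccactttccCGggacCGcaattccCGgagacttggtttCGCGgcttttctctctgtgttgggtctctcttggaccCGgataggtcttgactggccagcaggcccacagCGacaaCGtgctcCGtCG
Pdk4: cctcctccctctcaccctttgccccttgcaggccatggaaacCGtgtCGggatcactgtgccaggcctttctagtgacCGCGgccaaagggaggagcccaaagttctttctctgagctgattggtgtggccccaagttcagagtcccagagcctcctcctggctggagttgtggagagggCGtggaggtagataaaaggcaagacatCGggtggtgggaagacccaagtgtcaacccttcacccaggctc
Myh7: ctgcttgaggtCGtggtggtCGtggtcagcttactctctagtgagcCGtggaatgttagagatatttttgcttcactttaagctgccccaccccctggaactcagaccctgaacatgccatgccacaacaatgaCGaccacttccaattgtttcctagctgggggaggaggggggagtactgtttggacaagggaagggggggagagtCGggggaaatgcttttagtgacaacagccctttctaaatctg
Tial1 holds 19 CG in this window, Pdk4 holds 6 and Myh7 holds 5. Of the 32851 promoter sequences of that table, 92.1% hold at least 1 CG, 55.6% at least 5, 50.4% at least 6 and 19.7% at least 19. The regions of Tial1 and Pdk4 contain a CpG island in the authors' annotation, and that of Myh7 does not.

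The merged regions, which need a call in any library of the table, included promoters of cardiac genes. Of 14 ventricular cardiomyocyte markers 12 had a promoter region, and of 11 atrial ones 5. Of 22 macrophage and myeloid markers 11 had one, of 17 lymphocyte markers 2, and of 20 neuronal and developmental genes 0. Of the 12 ventricular markers, 5 were called in the TAC library and 11 in the sham library at 10% fat. At 60% fat 0 were called in the TAC library and 7 in the sham library. The caller marked 19628 regions in the TAC library and 41348 in the sham library at 10% fat, against 14679 and 29473 in the TAC and sham libraries at 60% fat. Tags estimated over the merged regions came to 3062635 and 5194261 at 10% fat, and to 2543841 and 3292938 at 60% fat, in the same order. The sham library at 10% fat stood apart from the other libraries of the table. Its signal across the 58137 regions had a Spearman rho of 0.29 with the TAC library at 10% fat, -0.12 with the TAC library at 60% fat and -0.04 with the sham library at 60% fat, while the TAC library at 10% fat had rho of 0.69 and 0.70 with those at 60% fat. The TAC and sham libraries at 60% fat had a rho of 0.77. Over promoter regions alone, the sham library at 10% fat had a rho of 0.51 with the TAC library at 10% fat. It was 0.08 with the TAC library and 0.20 with the sham library at 60% fat. Over other regions the values were 0.11, -0.22 and -0.16 in the same order. Of the merged regions 21352 were called in the sham library at 10% fat alone, which can lower its correlations. These are descriptions over the same merged regions, with no test. Because every ratio below is taken over the sham library at 10% fat, the value with the sham library at 60% fat in its place is given beside the main results. That replacement changes the diet of the sham side as well.

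Signal was lower in the TAC library over most regions, and most so at promoters. The median promoter signal was 19.6 in the TAC library and 32.8 in the sham library, and the median signal of other regions was 17.5 in the TAC library and 24.2 in the sham library. As deposited, the median log2 ratio was -0.88 over promoters (quartiles -1.13 and -0.44) and -0.53 over other regions (quartiles -0.99 and 0.25). Of the promoter regions 16365 (69.6%) were lower in the TAC library and 1949 (8.29%) higher, and of the other regions 16390 (47.3%) were lower and 5305 (15.3%) higher. The 60% fat pair had smaller medians, -0.34 over promoters and -0.37 over other regions. With the sham library at 60% fat in place, the medians were -0.01 over promoters and -0.20 over other regions, so the lower promoter signal of the TAC library was seen against 1 of the 2 sham libraries.

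After centring, promoters and other regions lay on opposite sides of 0. The centred median was -0.18 over promoters and 0.18 over other regions, against 0.01 and -0.01 in the 60% fat pair. Of the promoter regions 2835 (12.1%) were lower and 4332 (18.4%) higher relative to the median region, and of the other regions 3723 (10.8%) were lower and 12359 (35.7%) higher. Against the sham library at 60% fat, 1140 promoter regions were lower and 1760 higher, and 4009 other regions were lower and 2056 higher. At 2-fold, 333 promoter regions (1.42%) were lower and 2922 (12.4%) higher, and 824 other regions (2.38%) were lower and 8159 (23.6%) higher. Promoters took 53.9% of the estimated tags of the TAC library and 59.9% of those of the sham library. At 60% fat the shares were 50.4% in the TAC library and 50.5% in the sham library.

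The authors' calls describe the same contrast in another way. Of the promoter regions 9899 were called in both libraries at 10% fat, 1198 in the TAC library only, 9313 in the sham library only and 3111 in neither. Of the other regions 5435 were called in both, 3096 in the TAC library only, 16701 in the sham library only and 9384 in neither. CpG islands were present in 76.6% of the promoter regions called in both libraries, 6.51% of those called in the TAC library only and 50.6% of those called in the sham library only. Promoter regions called in the TAC library only had a median signal of 25 in the TAC library and 15.4 in the sham library. Their signal was also high in the libraries at 60% fat, with 22.1 in TAC and 25.1 in sham. Calls and ratios come from the same reads, so the calls are no separate evidence for the ratios.

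Promoters with a CpG island had lower ratios than those with none. Over the 12492 promoter regions with an island, the median signal was 20.9 in the TAC library and 41.7 in the sham library, a median ratio of -1.02 as deposited and -0.31 centred. Over the 11029 promoter regions with no island it was 18.4 in the TAC library and 24.3 in the sham library, with -0.49 as deposited and 0.21 centred. Regions outside promoters showed the same order: the 1247 with an island had a centred median of -0.24 and the 33369 with none 0.21. In the 60% fat pair the centred medians of the 4 classes were 0.00 and 0.02 at promoters with and without an island, and 0.05 and -0.01 at other regions with and without one. With the sham library at 60% fat in place, the centred medians were 0.18 and -0.04 at promoters and 0.16 and -0.10 elsewhere, which turns the order of islands and other sequence round. The sham library at 10% fat had 48.5% of its estimated tags in regions with an island, and the other libraries of the table had between 35.9% and 40.3%.

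**Figure D1:**
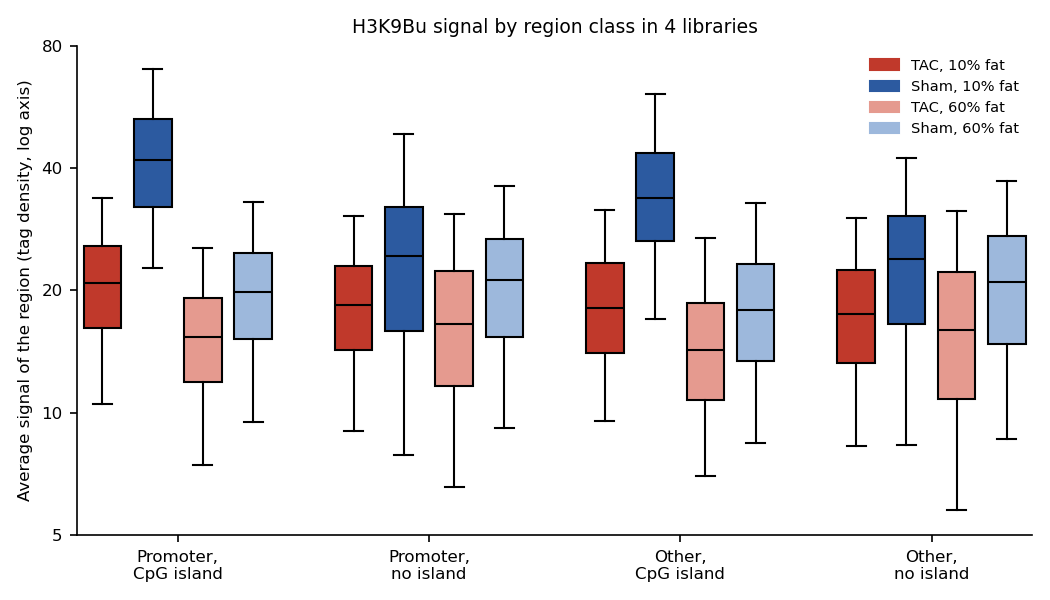
H3K9Bu signal (average tag density, log axis) of promoter and other regions with and without a CpG island in the TAC and sham libraries at 10% and 60% fat. Boxes span the quartiles, the line is the median and whiskers reach the 5th and 95th percentiles of regions. The sham library at 10% fat has the highest median in each class, most clearly at promoters with an island (41.7, against 20.9 in the TAC library at 10% fat).

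The presence of H3K9ac divided the regions more sharply than the island did. H3K9ac regions of the same diets came from a separate merged table of 4 other libraries, and an overlap of 1 bp counted. The 20036 promoter regions that overlapped an H3K9ac region had a median signal of 19.8 in the TAC library and 35.7 in the sham library, with a centred median of -0.24. The 3485 promoter regions with no overlap had 18.6 in the TAC library and 14.4 in the sham library, with a centred median of 1.13. Outside promoters, the 15582 overlapping regions had a centred median of -0.09 and the 19034 with no overlap 0.72. Within promoters with no island, overlap with H3K9ac still went with a lower ratio, with centred medians of 0.00 over 7643 overlapping regions and 1.15 over 3386 others. In the 60% fat pair the centred medians of promoters with and without H3K9ac were 0.01 and 0.06, and with the sham library at 60% fat in place they were 0.14 and -0.23.

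**Figure D2:**
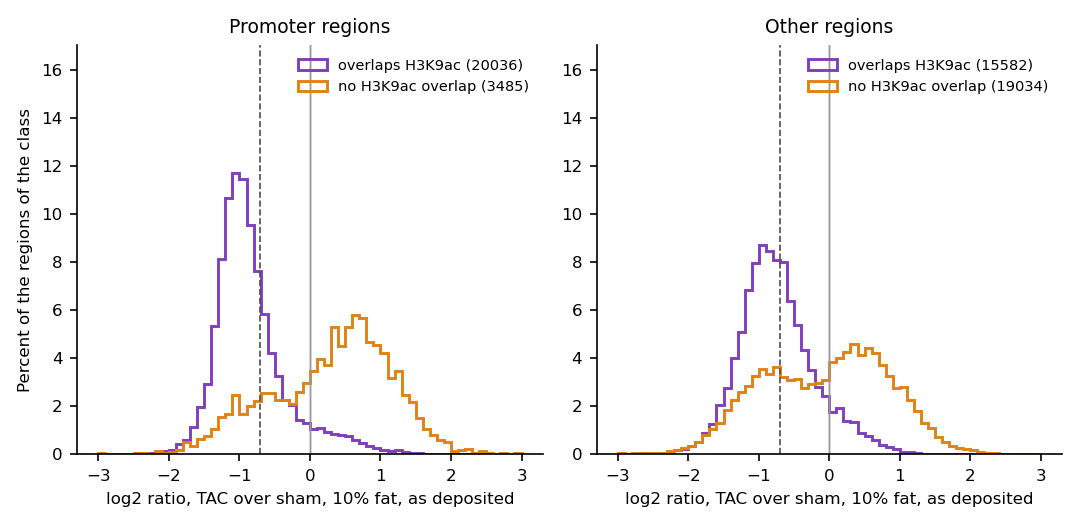
Distribution of the log2 ratio of TAC over sham at 10% fat, as deposited, over promoter regions (left) and other regions (right), split by overlap with an H3K9ac region. The horizontal axis is the ratio and the vertical axis the percent of the regions of the class; the dashed line is the median of all regions (-0.71) and numbers in the legend count regions. Regions that overlap H3K9ac form 1 peak below 0, and regions with no overlap reach above 0 in both panels.

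The ratio also differed with how much signal a region had. Over 10 bins of like size by the mean signal of the 4 libraries of the table, 2 of which enter the ratio, the centred median of promoters was -0.44 in the lowest bin, -0.06 in bin 7 and -0.30 in the highest. That of other regions was -0.47 in the lowest bin, 0.46 in bin 7 and 0.45 in the highest. A second grouping, chosen after the data were seen, used only libraries that do not enter the ratio. Regions were put into 10 bins by their mean signal in the TAC and sham libraries at 60% fat. The merged regions themselves are not free of the ratio, since 21352 were called in the sham library at 10% fat alone. A region low at 60% fat could enter through that call, which favours low ratios in the low bins by construction. In the lowest bin of promoters the median signal was 10.7 in the TAC library and 25.2 in the sham library at 10% fat, and the centred median ratio was -0.49. In the highest bin it was 30.1 in the TAC library and 28.9 in the sham library, with a centred median of 0.64. Over other regions the centred median was 1.07 in the highest bin, where the median was 27.4 in the TAC library and 20.4 in the sham library, and it was -0.55 in the lowest. Promoters with a CpG island spanned less, with -0.47 in the lowest bin and -0.13 in the highest. Promoters with no island had -0.50 in the lowest bin and 1.04 in the highest. The bins were cut over all regions, so each holds between 1844 and 2729 promoter regions.

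**Figure D3:**
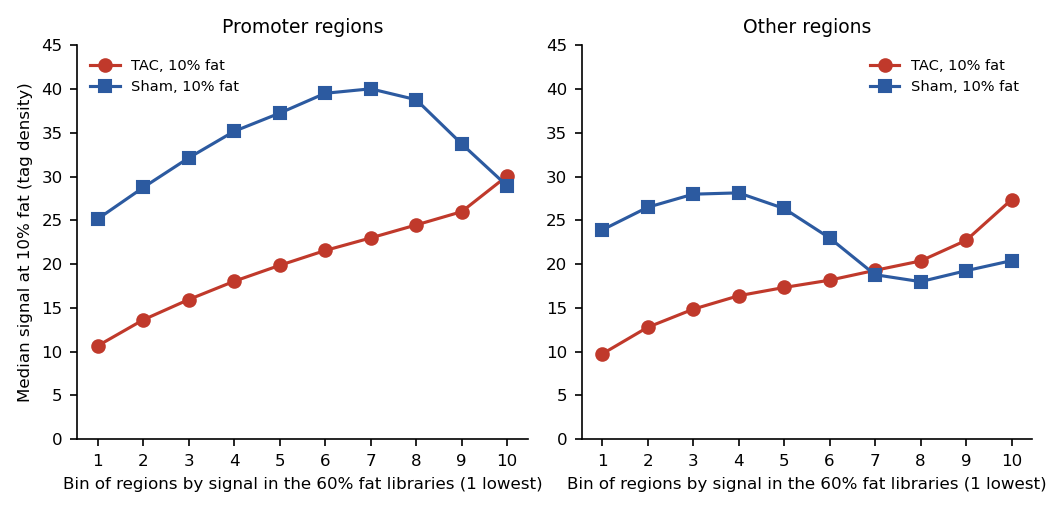
Median H3K9Bu signal (tag density) of the TAC and sham libraries at 10% fat over regions grouped in 10 bins by their signal in the 60% fat libraries, for promoter regions (left) and other regions (right). The TAC library climbs along the bins in both panels, with 10.7 in the lowest and 30.1 in the highest bin of promoters. The sham library does not, and outside promoters its median is below that of the TAC library from bin 7 on.

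Region length divided the ratios less, and the autosomes differed little. Promoter regions under 1000 bp had a centred median of -0.11, those from 1000 to under 2000 bp -0.30, those from 2000 to under 4000 bp -0.27 and the 47 of 4000 bp or more -0.24. Among autosomes the centred median over all regions ran between -0.17 on chromosome 13 and 0.14 on chromosome 8. Chromosome X was below that range at -0.43 over 633 regions, of which 34.8% were lower, with a median signal of 12.0 in the TAC library and 26.6 in the sham library. Its centred median was -0.10 in the 60% fat pair and 0.18 with the sham library at 60% fat in place.

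The strongest regions outside promoters were among those with more signal in the TAC library. A region of 945 bp inside C1qtnf1, which encodes a secreted protein of the adiponectin family, had 74.97 in the TAC library and 30.6 in the sham library at 10% fat, and 92.4 in TAC and 112.4 in sham at 60% fat (chromosome 11, 118441306 to 118442251). Its centred ratio was 1.97 (1.70 to 2.31). Regions inside Rusc2, whose product acts in vesicle traffic, and Camk2b, a calcium and calmodulin kinase subunit, had 71.4 and 67.3 in the TAC library and 29.3 and 25.4 in the sham library. Their centred ratios were 1.96 (1.54 to 2.45) and 2.08 (1.80 to 2.42), and in the libraries at 60% fat both had between 72.8 and 110.8. A region with no assigned gene on chromosome 2 (30696400 to 30697069) had 66.05 in the TAC library and 25.3 in the sham library, with a centred ratio of 2.06 (1.69 to 2.48). None of these 4 regions overlapped an H3K9ac region or held an island. The remaining one of the 5 strongest, on chromosome 5 (32713230 to 32714390), held an island and H3K9ac, and had 65.2 in the TAC library and 110.5 in the sham library with a centred ratio of -0.05 (-0.26 to 0.14).

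The longest regions were close to the median region. The regions inside Bcl2l1, an inhibitor of cell death, Cuedc1, Zbtb16, a transcription factor induced by glucocorticoids, and Tns1, a focal adhesion protein, and the one upstream of the long noncoding RNA gene Neat1 were between 6288 and 7876 bp long. Their signals were between 30.7 and 37.9 in the TAC library and between 52.8 and 72.5 in the sham library. The centred ratios of the 4 regions inside genes were between -0.10 and -0.04, and that at Neat1 was -0.32 (-0.45 to -0.23).

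The other regions with the most extreme ratios were short and held few tags on 1 side. The highest was inside Amica1, also known as Jaml, an adhesion gene of leukocytes, with 28.6 in the TAC library and 3.71 in the sham library and a centred ratio of 3.36 (2.12 to 6.19). Next came regions inside Itga9, an integrin subunit, Sept9, a septin, Capg, an actin-capping protein, and Igfbp7, a secreted binding protein of growth factors, with centred ratios between 3.01 and 3.26. The lowest was on chromosome 6 (28929353 to 28929621) with no assigned gene, with 2.12 in the TAC library and 28.1 in the sham library and a centred ratio of -2.51 (-5.14 to -1.13). Of the 6 lowest, a region inside Ssh2, a phosphatase that acts on cofilin, had 4.75 in the TAC library and 38.5 in the sham library. With the sham library at 60% fat in place, the region in Amica1 had a centred ratio of -0.16 and the lowest one -0.41.

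Each gene was then given its strongest promoter region, which covered 13332 genes through 10797 distinct regions. The centred median over genes was -0.29. It was -0.32 over the 10139 with an island in the region and -0.11 over the 3193 with none. Relative to the median region, 1749 genes (13.1%) were lower in the TAC library and 742 (5.57%) higher. Over all promoter regions 12.1% were lower and 18.4% higher. The strongest region was chosen by a mean that includes the sham library at 10% fat, the denominator, which had the highest promoter signal. The choice can thus favour low ratios, in list members as in all genes. As deposited, 11504 genes (86.3%) were lower and 269 (2.02%) higher. Of the 742 higher genes 111 had an island in the region, and of the 1749 lower ones 1339 did. Over all 13332 genes the share with an island was 76.1%, so the lower genes were like all genes in this and the higher ones had fewer. Against the sham library at 60% fat, 185 genes (1.39%) were lower and 829 (6.22%) higher.

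The lowest and highest ratios were taken among promoters with a signal at or above the median over genes in either library. The 12 lowest had high values in the sham library at 10% fat. This was built into the choice, since that library is the denominator and these promoters reached the median through it alone. Cnot4, a ubiquitin ligase associated with the CCR4-NOT complex, had 13.7 in the TAC library and 68.2 in the sham library, and 17.6 in TAC and 20.9 in sham at 60% fat (gene ID 53621, chromosome 6, 35133453 to 35133785). Its centred ratio was -1.53 (-2.40 to -0.93). Tial1, an RNA-binding protein of stress granules whose promoter is printed above, had 25.4 in the TAC library and 100.1 in the sham library, and 21.4 in TAC and 30.2 in sham at 60% fat (gene ID 21843, chromosome 7, 128461281 to 128461753). Its centred ratio was -1.23 (-1.72 to -0.82). In both cases the TAC library lay near both libraries at 60% fat and the sham library at 10% fat far above them.

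The other 10 of the 12 had centred ratios between -1.17 and -1.02, with TAC signals between 11.6 and 20.1 and sham signals between 45.2 and 74.3. Among them were Epb4.1l2, a membrane skeleton protein, Lca5l, Zc3h18, a zinc finger protein of nuclear RNA processing, Kpna1, an importin, Vkorc1l1, a vitamin K epoxide reductase, Usp38, a deubiquitinase, Pom121l2, and Rrp7a, a factor of ribosomal RNA processing. Of the 12 genes 10 had an island in the region, against 89.3% of all genes whose larger signal reached the median over genes. Pom121l2 had none, in a region lying at -6402 bp relative to its start. The region of Usp38 serves a second gene. Kpna1 went the other way at 60% fat, with 22.4 in TAC and 10.0 in sham, on 11 estimated tags in the TAC library and 41 in the sham library at 10% fat. Against the sham library at 60% fat, 7 of the 12 kept a ratio below 0, the lowest being that of Lca5l at -0.68.

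Among the 12 highest ratios, the sham library at 10% fat had the lowest of the 4 signals at each of the top 6. Tha1, a threonine aldolase, had 45 in the TAC library and 13.7 in the sham library, and 42.0 in TAC and 32.7 in sham at 60% fat, in a region centred at -6992 bp, upstream of the start (gene ID 71776, chromosome 11, 117880410 to 117880626). Its centred ratio was 2.35 (1.51 to 3.45), and it was 0.71 in the 60% fat pair. With promoter regions limited to those centred within 2000 bp of the start, Tha1 had -0.52. Cdc42se2, an effector of the small GTPase Cdc42, had 45.1 in the TAC library and 18.5 in the sham library, and Brd3, a bromodomain reader of acetylated histones, had 51.6 in the TAC library and 24.2 in the sham library. Their centred ratios were 1.95 (1.44 to 2.57) and 1.77 (1.28 to 2.34). At 60% fat Cdc42se2 had 65.2 in TAC and 67.5 in sham, and Brd3 60.2 in TAC and 74.0 in sham. A low value in the sham library at 10% fat was favoured by the choice of the highest ratios. These promoters therefore cannot show by themselves that this library stood apart.

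Zfp316, a zinc finger protein, Stat6, a transcription factor activated by interleukin 4, and Msl2, a ubiquitin ligase of the MSL complex, followed with 1.68 (1.09 to 2.34), 1.66 (1.09 to 2.31) and 1.19 (0.60 to 1.79). All 6 of these regions lacked an island. Of the 6, 5 were below 0 with the sham library at 60% fat in place, and Tha1 kept 0.57. The other 6 were Mex3d, an RNA-binding protein, Crip1, a LIM protein, Tinagl1, a matrix protein, Lama4, a laminin chain, Nfkb2, an NF-kB subunit, and Chd4, a chromatin remodeller. Their signals were between 40.1 and 45.3 in the TAC library and between 45.04 and 53.3 in the sham library, with centred ratios between 0.44 and 0.69. As deposited, these 6 were at or below the sham library, and they rank high only relative to the median region. Nfkb2 had an island and a region centred 446 bp from the start, and kept 0.26 with the sham library at 60% fat in place.

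**Figure D4:**
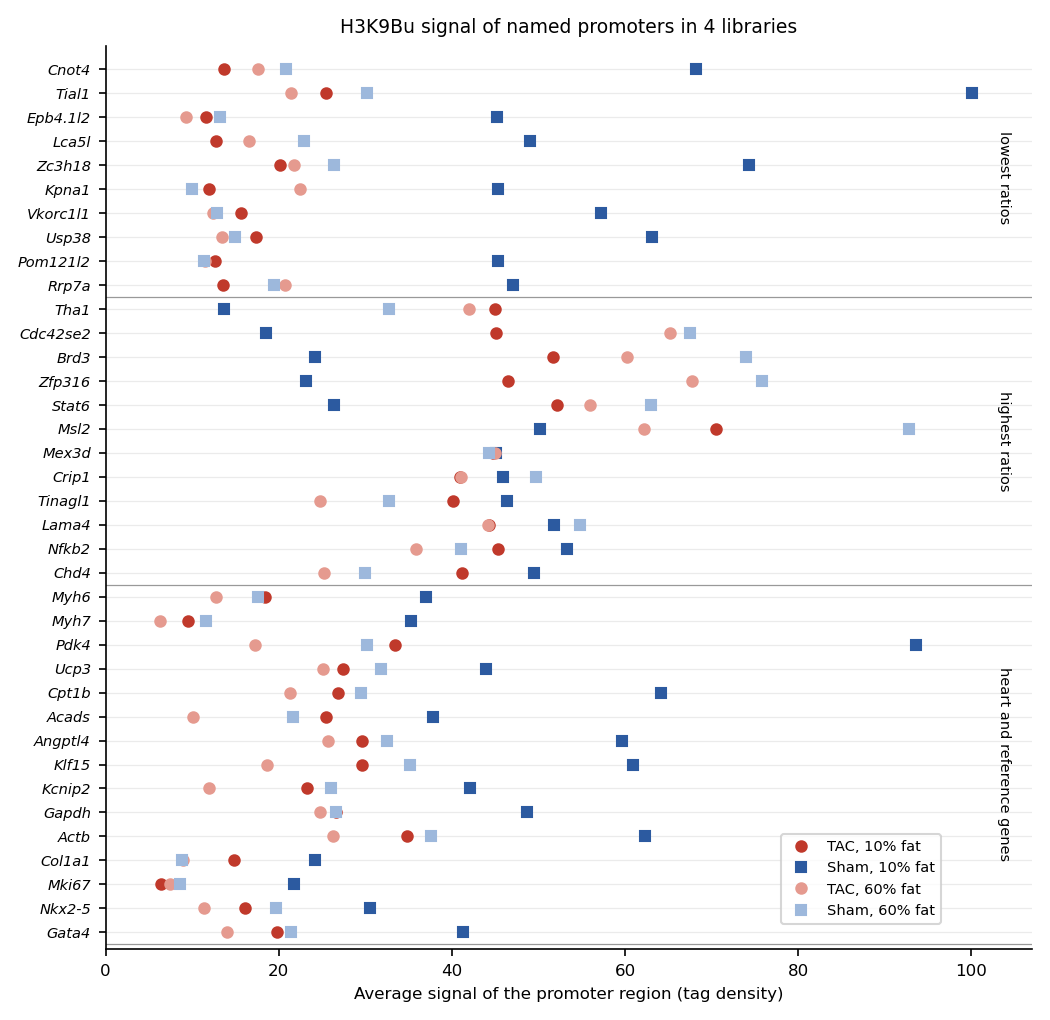
H3K9Bu signal (tag density) of the promoter region in the TAC and sham libraries at 10% fat and at 60% fat, for 10 of the 12 genes with the lowest ratios, the 12 genes with the highest, and 15 heart and reference genes. Each point is 1 library. For the lowest ratios the sham library at 10% fat lies to the right of the other 3 libraries, as for Tial1 at 100.1. For the top 6 of the highest ratios it lies to their left, as for Brd3 at 24.2. Both follow in part from choosing genes by a ratio over that library.

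Promoters called in the TAC library and not in the sham library were described through their 5 strongest genes. These were Zfp316 and Stat6, given above, Acap3, a GTPase-activating protein, and the unnamed transcripts 4921531C22Rik and Gm19557. Their signals were between 41.7 and 52.1 in the TAC library and between 20.3 and 26.4 in the sham library. At 60% fat they were between 53.3 and 67.7 in TAC and between 48.4 and 75.8 in sham. The 5 genes were ranked by the mean signal of the 4 libraries of the table, so high values at 60% fat were favoured by the choice. Of the strongest promoter regions in the table, those of Neat1, of the kinase Mknk2, of the autophagy receptor Nbr1 (a region shared with the start of Brca1) and of the nuclear protein Banp had 49.6 to 59.9 in the TAC library and 116.1 to 131.7 in the sham library. Their centred ratios were between -0.61 and -0.30. The remaining one of the 5 strongest, that of Msl2, had 70.5 in the TAC library and 50.2 in the sham library, and its centred ratio of 1.19 is given above.

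The lists of ventricular muscle and of the contractile apparatus had medians below the -0.29 of all genes, with 9 of 12 and 13 of 22 members below it. The counts of list members below are to be read against all 13332 genes, of which 13.1% were lower and 5.57% higher. Of 14 ventricular cardiomyocyte markers 12 were measured, with a median of -0.46; 4 were lower and 0 higher. Ckmt2, the mitochondrial creatine kinase of striated muscle, had 15.6 in the TAC library and 47.8 in the sham library, a centred ratio of -0.85 (-1.34 to -0.51), and Myl2, the ventricular regulatory light chain, had 18.6 in the TAC library and 21.9 in the sham library, with 0.48 (-0.41 to 1.26). The sarcomere and Z-disc list had a median of -0.36 over 22 genes, with 6 lower and 0 higher. Its lowest member was the giant spring protein gene Ttn, with 11.2 in the TAC library and 43.9 in the sham library and a centred ratio of -1.17 (-1.92 to -0.66). Myoz2, a Z-disc protein that binds calcineurin, had 18.5 in the TAC library and 57.5 in the sham library and 8.08 in TAC and 22.6 in sham at 60% fat, with centred ratios of -0.88 and -1.02.

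The load-responsive and fetal genes, of which Nppa, Nppb, Ankrd1 and Acta1 had no promoter region in the table, had a median of -0.21 over 8 measured genes. Myh7, the slow myosin heavy chain that is switched on in the loaded mouse heart, had 9.50 in the TAC library and 35.3 in the sham library, and 6.25 in TAC and 11.6 in sham at 60% fat, with a centred ratio of -1.08 (-2.19 to -0.19) at 10% fat. The adult fast myosin gene Myh6 had 18.5 in the TAC library and 37.1 in the sham library, with -0.26 (-0.86 to 0.22), from a region that was centred 2735 bp downstream and serves a second gene. Both myosin promoters lacked an island. Rcan1, a target of calcineurin signalling, stood at 0.09 and Fhl2, a LIM protein of heart muscle, at 0.11, both with intervals that include 0.

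Calcium handling and ion channel genes had a median of -0.29 over 16 genes, the same as over all genes. Trdn, a protein of the junctional sarcoplasmic reticulum, was the lowest, with 6.30 in the TAC library and 28.1 in the sham library and a centred ratio of -1.29 (-2.13 to -0.77); in the 60% fat pair it had -0.83. Pln, the inhibitor of the calcium pump, had 14.7 in the TAC library and 40 in the sham library, with -0.68 (-1.54 to -0.04). The pump gene Atp2a2 had 33.8 in the TAC library and 65.2 in the sham library, with -0.22 (-0.54 to 0.04), and the potassium channel subunit gene Kcnip2 had 23.3 in the TAC library and 42.1 in the sham library, with -0.12 (-0.66 to 0.34). The 17 cardiac transcription factors had a median of -0.23. Esrrb, an orphan nuclear receptor, had the lowest ratio at -0.89 (-1.44 to -0.49), while Gata4 stood at -0.32 (-0.64 to -0.06), Nkx2-5 at -0.18 (-0.91 to 0.39) and Srf, which drives contractile genes, at 0.43 (-0.30 to 1.13). The 5 measured atrial cardiomyocyte markers had a median of -0.31.

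Lists of mitochondrial fuel use had medians below that of all genes. A ratio below 0 was common in general, with 80.3% of all genes and 87.3% of those with an island below 0. Genes whose larger signal reached the median over genes had a centred median of -0.37, with 94.7% below 0. Their median signal was 26.6 in the TAC library and 55.8 in the sham library. Most thus reached it through the sham library, the denominator, which favours low ratios by construction. The TCA cycle, fatty acid oxidation and oxidative phosphorylation lists had sham medians of 58.2, 57.0 and 61.4. Their ratios are to be read beside such promoters, though these lists were not chosen by signal. All 24 measured genes of the TCA cycle and pyruvate dehydrogenase were below 0 after centring, with a median of -0.42, and all 24 had an island; 4 were past 1.5-fold. Pdha1, the catalytic subunit of pyruvate dehydrogenase, had 13.2 in the TAC library and 38.2 in the sham library, with -0.76 (-1.18 to -0.49). The citrate synthase gene Cs had 40.9 in the TAC library and 72.8 in the sham library, with -0.11 (-0.52 to 0.26). The list for use of ketone bodies and branched-chain amino acids stood at a median of -0.46, with 14 of 14 genes below 0, among them Bckdha, a subunit of the branched-chain keto acid dehydrogenase, at -0.63 (-0.91 to -0.42).

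The median of the fatty acid oxidation list was -0.39 over 21 genes, with 19 below 0, 2 lower and 0 higher. The lowest were Eci2, an enoyl-CoA isomerase, with 20.6 in the TAC library and 55.9 in the sham library and a centred ratio of -0.69 (-1.004 to -0.47), and Etfa, an electron acceptor of the acyl-CoA dehydrogenases, with 24.1 in the TAC library and 63.4 in the sham library and -0.65 (-0.97 to -0.40). Cpt1b, the muscle carnitine palmitoyltransferase, had 26.8 in the TAC library and 64.2 in the sham library, with -0.52 (-0.79 to -0.31), from a region shared with 2 other genes. Acads, the short-chain acyl-CoA dehydrogenase that acts on butyryl-CoA, had 25.5 in the TAC library and 37.8 in the sham library, with 0.15 (-0.42 to 0.69), from a region centred at -6202 bp. PPAR targets and lipid handling genes had a median of -0.43 over 22 genes, with 6 lower. Pdk4, which shuts off glucose oxidation and whose promoter is printed above, had 33.4 in the TAC library and 93.6 in the sham library, and 17.2 in TAC and 30.3 in sham at 60% fat, with -0.75 (-1.10 to -0.47) at 10% and -0.42 at 60% fat. Pdk4 stood at 0.25 with the sham library at 60% fat in place.

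Ppara itself, the receptor that drives fatty acid oxidation genes, had 19.3 in the TAC library and 59.9 in the sham library, with -0.88 (-1.40 to -0.50), and Fabp3, the heart fatty acid binding protein, stood at -0.60 (-0.87 to -0.42). Ucp3, a mitochondrial uncoupling protein, stood at 0.04 (-0.17 to 0.22), and Angptl4, which inhibits lipoprotein lipase, at -0.28 (-0.48 to -0.13). The highest of the list was the hormone-sensitive lipase gene Lipe at 0.55 (0.16 to 0.94). Oxidative phosphorylation subunits had a median of -0.35 over 23 genes, with 22 below 0. The exception was Cox7a1, a cytochrome oxidase subunit of heart and muscle, with 23.4 in the TAC library and 17.4 in the sham library. Its centred ratio was 1.11 (0.36 to 1.99), from a region centred 2332 bp downstream and called in neither library. With the sham library at 60% fat in place Cox7a1 stood at -0.25.

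Glucose uptake and glycolysis genes had a median of -0.25 over 21 genes, with 2 lower and 1 higher. Hk2, a hexokinase, stood at -0.68 (-1.32 to -0.16), the insulin-responsive glucose transporter gene Slc2a4 at -0.61 (-1.02 to -0.27) and Gapdh at -0.14 (-0.45 to 0.12). The higher gene was Tpi1, the triosephosphate isomerase, with 23.3 in the TAC library and 14.2 in the sham library, at 1.38 (0.88 to 1.99). With the sham library at 60% fat in place Tpi1 stood at -0.13. Lipogenesis genes had a median of -0.16 over 18 genes, with 0 lower and 2 higher, among them the fatty acid elongase gene Elovl6 at 0.80 (-0.05 to 1.71). The genes for acyl-CoA supply had a median of -0.36 over 12 genes.

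Genes of the fasting and glucocorticoid response had a median of -0.44 over 17 genes, with 6 lower and 1 higher. Klf9, a glucocorticoid-induced repressor, had 37.4 in the TAC library and 97.1 in the sham library, with -0.65 (-0.79 to -0.56), and Per1, a clock gene with a glucocorticoid response, had 52.3 in the TAC library and 115.5 in the sham library, with -0.42 (-0.63 to -0.25). The muscle ubiquitin ligase gene Trim63 stood at -0.63 (-1.01 to -0.37), and Klf15, a regulator of fuel use in the heart, had 29.7 in the TAC library and 60.96 in the sham library, with -0.31 (-0.50 to -0.16). The stress response gene Ddit4 was the member counted as higher, at 0.81 (0.19 to 1.401). Circadian clock genes had a median of -0.35 over 18 genes, and immediate early genes -0.28 over 21, with Egr3 the higher member of that list at 1.30 (0.60 to 2.07).

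Among lists of at least 4 measured genes, the TNF and NF-kB pathway had the highest median and the one above 0. It was 0.07 over 16 genes, with 0 lower and 4 higher, against 13.1% and 5.57% over all genes. Tnf, the cytokine itself, had 25 in the TAC library and 19.8 in the sham library, with 1.03 (0.11 to 1.99), from a region close to the gene start. The TNF receptor gene Tnfrsf1b had 30.9 in the TAC library and 26.3 in the sham library, with 0.93 (0.33 to 1.61). The inhibitor gene Nfkbie and the adhesion molecule gene Icam1 had 0.91 (0.06 to 1.87) and 0.68 (-0.10 to 1.42), and the transcription factor gene Nfkb1 was the lowest at -0.37 (-0.82 to 0.01). The 8 members with an island had a median of -0.04 and the 8 with none 0.46, against -0.32 and -0.11 over all such genes. Of all genes 76.1% had an island, so the list held more genes with none. Over all genes with no island 12.8% were lower and 19.8% higher, and over those with one 13.2% were lower and 1.09% higher. The list had 0.13 in the 60% fat pair and 0.26 with the sham library at 60% fat in place, where the median over all genes was 0.18. Interferon and antigen presentation genes had a median of -0.14 over 17 genes, with 0 lower and 3 higher: the proteasome genes Psmb8 and Psmb9, which share 1 region, at 0.97 (0.28 to 1.73), and Ifit3 at 0.90 (0.11 to 1.71). Hypoxia response genes had a median of -0.29 over 14.

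The endothelial, smooth muscle, fibroblast and adipocyte lists had medians nearer to 0 than that of all genes, and the macrophage list did not. Endothelial markers had a median of -0.06 over 16 genes and smooth muscle and pericyte markers -0.03 over 9. Fibroblast markers had -0.12 over 10 and adipocyte markers -0.04 over 7, and the 2 measured lymphocyte markers 0.35. The endothelial cadherin gene Cdh5 had 27.9 in the TAC library and 32.7 in the sham library, with 0.49 (0.11 to 0.83). The lowest endothelial marker was the adhesion molecule gene Esam, with 22.3 in the TAC library and 53.1 in the sham library and -0.51 (-0.83 to -0.26), and 9 of the 16 were below 0. Macrophage and myeloid markers had a median of -0.43 over 11 genes, with 2 lower and 1 higher; the lysosomal glycoprotein gene Cd68 had 34.3 in the TAC library and 76.9 in the sham library, with -0.43 (-0.69 to -0.24), and the lysosomal membrane gene Laptm5 had 25.8 in the TAC library and 12.2 in the sham library, with 1.72 (0.79 to 2.79). The region of Laptm5, centred at -5180 bp, was called in neither library at 10% fat. It stood at -0.58 with the sham library at 60% fat in place. In the 60% fat pair the median of the macrophage and myeloid markers was 0.30. Extracellular matrix and fibrosis genes had a median of -0.13 over 23 genes: the collagen gene Col1a1 stood at 0.04 (-1.01 to 1.02) on 15 estimated tags in the TAC library and 24 in the sham library, the protease inhibitor gene Timp1 at -1.08 (-2.13 to -0.28), and Postn had no promoter region. Cell cycle genes had a median of -0.22 over 22 genes, with the proliferation marker Mki67 at -0.91 (-2.70 to 0.26) on 6 estimated tags in the TAC library and 21 in the sham library. How far a change in cell makeup bears on these groups was not tested.

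The genes that place, remove and read histone acylation were close to the median gene. Histone acyltransferases had a median of -0.32 over 14 genes, with 4 lower: the coactivators Ep300 at -0.73 (-1.03 to -0.53) and Crebbp at -0.60 (-0.99 to -0.29), and the MYST family members Kat8 at -0.70 (-1.09 to -0.40) and Kat5 at -0.63 (-0.90 to -0.42). Kat2a, the acetyltransferase GCN5, was higher, with 29.4 in the TAC library and 23.7 in the sham library and 1.01 (0.22 to 1.79). Histone deacylases had a median of -0.30 over 17 genes, with 3 lower, the sirtuin genes Sirt1, Sirt3 and Sirt4, at -0.81, -0.64 and -0.60. Acyl reader proteins had a median of -0.31 over 15 genes, with 0 lower and 2 higher, Brd3, described above, and Mllt3, a YEATS domain protein, at 0.66 (-0.05 to 1.38). Cytosolic ribosomal protein genes, with 23 islands among 24 genes, had a median of -0.34 and 24 of 24 below 0. Of all genes with an island 87.3% were below 0. Actb stood at -0.11 (-0.35 to 0.08).

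Of the 31 lists with at least 4 measured genes, 17 had a median below that of all genes. With the sham library at 60% fat in place, list medians were between -0.19 for adipocyte markers and 0.33 for interferon and antigen presentation genes, against 0.18 over all genes. Some lists kept their side of the median gene with either sham library and others did not. Ventricular cardiomyocyte markers and PPAR targets stayed below it, at -0.03 and 0.01. Calcium handling genes, which had equalled it at -0.29, were at -0.05. Macrophage markers went from -0.43, below the median gene, to 0.28, above it. Adipocyte markers went the other way, from -0.04 to -0.19.

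**Figure D5:**
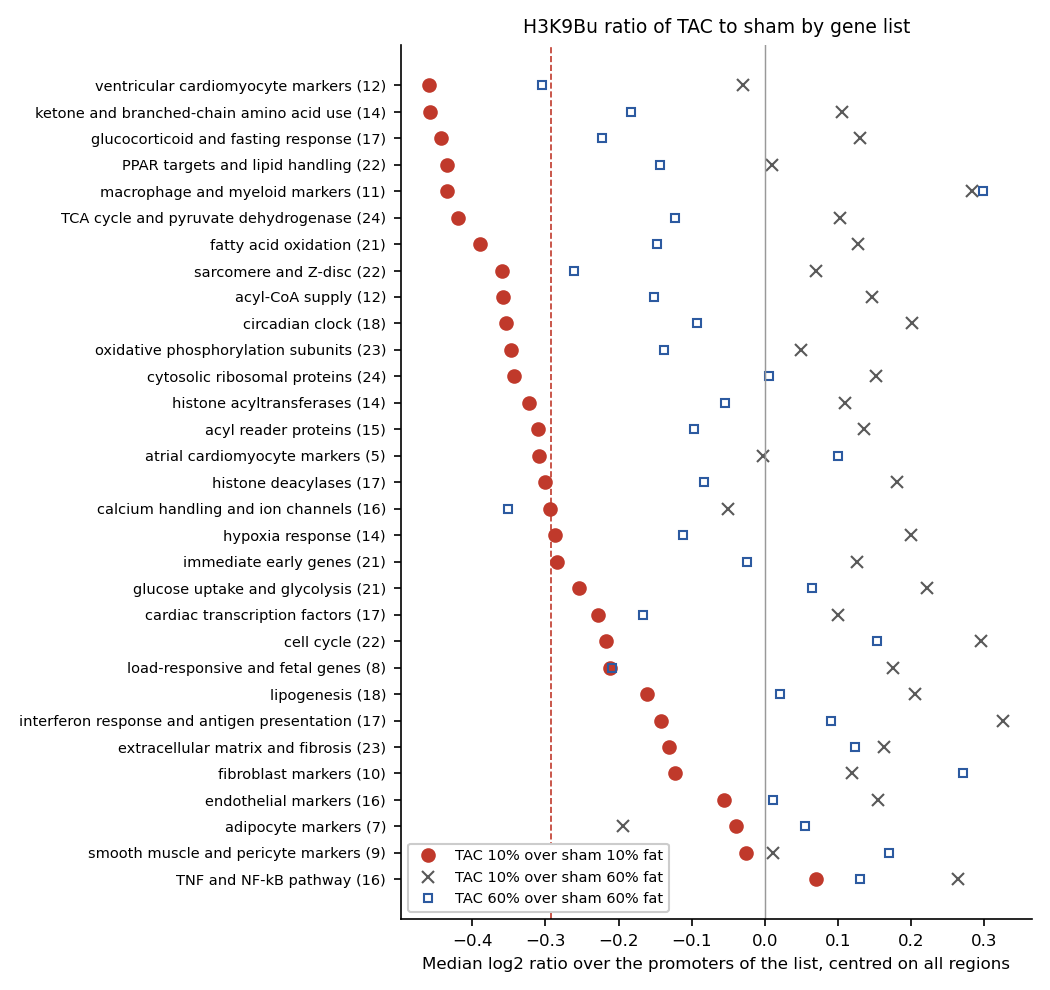
Median log2 ratio over the promoters of each gene list, centred on the median of all regions, for TAC over sham at 10% fat (filled circles), TAC at 10% fat over sham at 60% fat (crosses) and TAC over sham at 60% fat (open squares); the number of measured genes is in parentheses and the dashed line is the median over all genes at 10% fat (-0.29). At 10% fat the TNF and NF-kB pathway is the list above 0, at 0.07, and ventricular cardiomyocyte markers are lowest at -0.46. The crosses share a library with both other symbols.

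The same genes were looked up in TAC and sham pairs that share no library with this one. In the 60% fat H3K9Bu pair 394 of 13332 genes (2.96%) were lower and 443 (3.32%) higher. Of the lower genes 119 were lower in both pairs, which is 6.804% of the 1749 genes at 10% fat and 30.2% of the 394 at 60% fat. Of the higher genes 95 were shared, 12.8% of the 742 at 10% fat and 21.4% of the 443 at 60% fat. Both pairs come from 1 table and the same regions. Across genes the ratios of the pairs had a Spearman rho of 0.22, which is a description, since genes are not independent replicates. Shared lower genes with strong signal were Myoz2 and Etfa, given above, and Ppara, at -0.62 in the 60% fat pair. The zinc finger gene Wiz, of the G9a histone methyltransferase complex, stood at -0.76 at 10% fat and -1.61 at 60% fat, and Immt, an organiser of mitochondrial cristae, at -0.66 and -0.59. Immt shares its region with the mitochondrial ribosomal protein gene Mrpl35. These 5 genes were picked from the shared list after their values were seen.

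The 0% fat H3K9Bu pair and the H3K9ac pair at 10% fat showed few genes past 1.5-fold. Each gene was read there at its strongest promoter region in the merged table of that pair. This can be another place than its region in the 10% fat H3K9Bu pair. At 0% fat, 111 of 13097 genes (0.848%) were lower and 330 (2.52%) higher, and 31 lower and 62 higher genes were shared with the 10% fat H3K9Bu pair. These were 27.9% of the 111 and 18.8% of the 330. Over the same genes 13.2% were lower and 4.90% higher in the 10% fat H3K9Bu pair. In H3K9ac at 10% fat, 66 of 13057 genes (0.505%) were lower and 39 (0.299%) higher, and 9 lower and 15 higher genes were shared. These were 13.6% of the 66 and 38.5% of the 39. Over the same genes 13.1% were lower and 4.82% higher in H3K9Bu, so the share of lower genes was near that over all genes. The gene ratios had an SD of 0.43 in H3K9Bu and 0.17 in H3K9ac at 10% fat over the same genes, and the rho between them was 0.17. The rho with the 0% fat H3K9Bu pair was 0.18. For H3K9ac, Pdk4 stood at -0.55, Kcnip2 at -0.66, Ucp3 at -0.61 and Klf15 at -0.39 in the TAC library relative to the sham library at 10% fat. Pdk4 was therefore the one of these 4 genes that was past 1.5-fold in H3K9Bu at 10% fat. Ucp3 and Kcnip2 were past it in H3K9ac and had H3K9Bu ratios of 0.04 and -0.12. The H3K9Bu region of Ucp3 was centred 7864.5 bp from the RefSeq gene start. Whether both marks were read at the same place was not tested, so a difference between marks and one between places cannot be told apart here.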

How the data were processed

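H3K9Bu ChIP-seq of pooled mouse heart nuclei (a pool of 3 per precipitation) was used as the authors deposited it. Per the submitters' processing notes, the tools were BWA and SICER and the genome build mm10; how libraries were scaled, and how the inputs were used, is not given in the sources used here. Per the file headers, each region merged from the calls of 4 libraries has a deposited average and peak signal, a tag density. A column of calls (0 or 1) per library and the CpG island, promoter and gene annotation are also the authors'. The deposited log2 ratios were equal to those recomputed from the averages within 1e-06 in 58137 regions.

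From these values the log2 ratio of average signal (pseudocount 1) was computed as deposited and centred on the median of all regions. Tags per region were estimated as signal times length over 224. The larger estimate of the pair equalled the deposited tag number in 58137 regions. Estimates were rounded to whole numbers for the intervals, which are Clopper-Pearson at 95%. A promoter is 7500 bp upstream to 2500 bp downstream of a gene start, which gave the file's own promoter count in 58135 regions; a gene took its strongest promoter region by mean signal of 4 libraries. Of 13332 symbols 12985 matched a RefSeq symbol or synonym of GRCm38.p6. H3K9ac overlap was found with bedtools 2.31.1 (minimum 1 bp). Python 3.11.15, pandas 2.3.3, scipy 1.17.1 and statsmodels 0.14.6 (lowess, fraction 0.3) were used, and the steps were tested on simulated data.

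Named genes are the 12 highest and 12 lowest centred ratios among promoters whose larger signal reaches the median over genes, a fixed set of heart and reference genes, members of each list (the strongest, highest and lowest) and the strongest and longest regions; some are not reported here, and members outside these rules, such as Cdh5, Fabp3, Pln and Slc2a4, were chosen after their values were seen. The members and lists were chosen with earlier results of these data known. The bins by 60% fat signal and the split by H3K9ac overlap were added after the data were seen. Total reads per library are unknown, so precision comes from estimated tags in regions. No test was made, since each side is 1 library. A check of CG content over genes was void, because 10114 of 13332 genes had a promoter sequence, under 80%. Alternatives were peak signal, a pseudocount of 5, a filter at the 25th percentile of mean signal, called regions only, lowess, scaling to equal tags, promoters within 2000 bp, a 2-fold limit, the mean over all regions of a gene and the sham library at 60% fat.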

Additional observations from a re-analysis of the deposited data

Results flagged for a closer look

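Some values lay on opposite sides of 0 in the 10% fat and the 60% fat pair of TAC and sham libraries. The difference between the diets was not tested, since each side is 1 library. The centred median over promoter regions was -0.18 at 10% fat and 0.01 at 60% fat, and over other regions it was 0.18 at 10% fat and -0.01 at 60% fat.

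The median of the extracellular matrix and fibrosis list was -0.13 at 10% fat and 0.12 at 60% fat. Fibroblast markers had -0.12 at 10% fat and 0.27 at 60% fat, and cell cycle genes had -0.22 at 10% fat and 0.15 at 60% fat. Macrophage and myeloid markers had -0.43 at 10% fat and 0.30 at 60% fat, on 11 of 22 genes with a promoter region. Kpna1 had -1.13 at 10% fat and 1.45 at 60% fat, with counting intervals that exclude 0 in both pairs. Lists were taken up here where both medians were at least 0.1 in size, and single genes where both intervals exclude 0.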

How the results depend on the processing

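With 1 library per side, there is no replicate to leave out. No paired analysis was possible because no test was made and each group has 1 library. The total reads of the libraries are not known, and the cause of the differences below was not tested.

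As deposited, the promoter median of -0.88 and the median of other regions of -0.53 were -0.87 and -0.47 with peak signal, -0.77 and -0.45 with a pseudocount of 5, -0.86 and -0.34 with the filter on mean signal, -0.95 and -0.54 in regions called in both libraries, -0.95 and -0.78 in regions called in at least 1, and -0.95 and -0.51 with promoters limited to 2000 bp. After rescaling they were -0.18 and 0.18 with median centring, -0.14 and 0.030 with lowess, and -0.0069 and 0.35 with equal tags. They were -0.011 and -0.20 with the sham library at 60% fat in place. The sign for other regions thus depends on the scaling.

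Centred counts of 2835 lower and 4332 higher promoter regions became 333 lower at 2-fold, 4633 lower with peak signal, 1846 lower with the larger pseudocount, 1219 lower with equal tags and 2241 higher within 2000 bp. They were 208 lower and 668 higher in regions called in both, 1231 and 2181 in regions called in at least 1, and 1140 and 1760 with the sham library at 60% fat. Counts of 3723 lower and 12359 higher other regions became 824 and 8159 at 2-fold, 42 and 1525 in regions called in both and 2123 and 5468 in regions called in at least 1. Lower other regions were 2107 with the larger pseudocount, 1771 with the filter, 6507 with lowess and 2117 with equal tags, and higher ones 2056 with the sham library at 60% fat.

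The difference in centred median between promoters with and without an island, -0.53, was -0.62 with peak signal, -0.48 with the larger pseudocount, -0.65 with the filter, -0.34 in regions called in both, -0.27 in regions called in at least 1, -0.32 with lowess, -0.40 within 2000 bp and 0.22 with the sham library at 60% fat. Between 14 and 22 lists were below the median gene, against 17. At 2-fold, shared lower and higher genes were 3 and 14 with the 60% fat pair, 0 and 4 with the 0% fat pair, and 0 and 1 with H3K9ac. Lower and higher genes at that limit were 39 and 66 in the 60% fat pair. They were 11 and 33 in the 0% fat pair and 11 and 2 in H3K9ac. In the 10% fat H3K9Bu pair 0.825% of all genes were lower and 3.25% higher.

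Of the 24 genes with the lowest and highest ratios, 9 kept their sign in regions called in both and 12 with the sham library at 60% fat. With that library, ratios turned to 0.36 for Kpna1, 0.38 for Vkorc1l1, 0.32 for Usp38, 0.25 for Pom121l2, 0.25 for Pdk4 and 0.33 for Nbr1, and to -0.45 for Cdc42se2, -0.39 for Brd3, -0.58 for Zfp316, -0.15 for Stat6, -0.28 for Msl2, -0.65 for Acap3 and -0.41 for 4921531C22Rik. In regions called in both, they turned to 0.45 for Usp38, -0.39 for Tha1, -0.26 for Brd3, -0.18 for Stat6, -0.56 for Msl2 and -0.56 for 4921531C22Rik. In regions called in at least 1, they turned to 0.29 for Kpna1, -0.23 for Brd3 and -0.53 for Msl2. Within 2000 bp they turned to 0.066 for Pom121l2, -0.52 for Tha1, -0.32 for Stat6, -0.70 for Msl2 and -0.70 for 4921531C22Rik.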

Other observations

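Regions outside promoters differed by whether the authors' annotation assigned them to a gene. The 26433 with a gene had a median signal of 17.9 in the TAC library and 24 in the sham library at 10% fat, with a centred median of 0.24. The 8183 with no gene had 16.3 in the TAC library and 24.9 in the sham library, with a centred median of -0.02.

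In the hypoxia list, Bnip3 and Bnip3l, which encode related receptors for the removal of mitochondria, were the highest and the lowest member. Bnip3 had 22.6 in the TAC library and 15 in the sham library, a centred ratio of 1.27 (0.38 to 2.24), from a region with no island centred at -5292 bp from the start. Bnip3l had 33.6 in the TAC library and 91.3 in the sham library, with -0.71 (-1.25 to -0.26), from a region with an island near the start. Relative to the sham library at 60% fat, Bnip3 stood at -0.68 and Bnip3l at 0.15, so both signs turned.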
